A study of Mus musculus with 9 samples.

Results

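The inhibitory Smad genes Smad6 and Smad7, the receptor-regulated Smad genes Smad1 and Smad5, the Id genes Id1, Id2 and Id3, the pseudoreceptor gene Bambi and the homeobox genes Msx1 and Msx2 were examined in mouse embryoid bodies (EBs) exposed to silver. The 10 genes were listed by symbol as genes that report the output of bone morphogenetic protein (BMP) signaling. Smad1 and Smad5 among them transmit the signal once phosphorylated, so their RNA levels are not a readout of that output. The listing rule uses no measured value, but it was made with earlier results of these data known. The paper's pathway list for Ag+ already holds Smad6, Smad7, Id1, Id2, Id3 and Bambi, and that for AgNPs holds Smad6 and Smad7. Counts of these genes below are therefore descriptions and not an independent test. Each gene was represented by the probe set with the highest mean over the 9 arrays among those naming that gene alone, as for the 22180 genes of the array that have such a probe set. Of the 10 genes, 9 had exactly 1 such probe set. Msx1 had none, because both probe sets that carry its name also name Msx1os, a transcript from the opposite strand of the same locus. These shared probe sets are described separately and are not counted as Msx1.

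The EBs came from a single line of C57BL/6 mouse embryonic stem cells (mESCs) and formed in hanging drops until day 3, in a basal medium without leukemia inhibitory factor, BMP-4 or an inhibitor of glycogen synthase kinase-3b. From day 3 they were kept for 24 h with AgNPs (citrate-coated silver nanoparticles of 20 nm) at 5.0 µg/ml, with Ag+ (added as silver acetate) at 5.0 µg/ml, or without silver as the control. Each group had 3 biological replicates, with 1 array per replicate. RNA was taken from whole EBs, so fewer cells that express a gene and less RNA of that gene per cell cannot be told apart in any value given here. As a description of the cells, 5 of 8 pluripotency markers, 6 of 6 primitive streak markers and 4 of 9 blood and endothelium markers had a mean level above 5.06, the median of all named probe sets on the log2 scale. So did 10 of 12 markers of lateral, cardiac and extraembryonic mesoderm and 10 of 10 of paraxial mesoderm. The same held for 11 of 12 visceral endoderm and 6 of 8 neural ectoderm markers. Levels of different probe sets do not measure relative amounts of RNA, so these counts do not test the label.

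BMP ligands bind pairs of type I and type II receptors on the cell surface, and the type I receptor then phosphorylates Smad1, Smad5 and Smad9, which enter the nucleus with Smad4 and bind regulatory DNA. Smad6 and Smad7 are induced by the pathway and act back on the receptors and receptor-regulated Smads, and Bambi is a transmembrane protein that resembles a type I receptor but lacks its kinase domain. The Id proteins hold basic helix-loop-helix factors away from DNA, and Msx1 and Msx2 are homeodomain repressors. In the early mouse embryo, BMP signals help to form the primitive streak and favor extraembryonic and lateral mesoderm over paraxial mesoderm.

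The start-site regions of the 5 genes that fell with Ag+ and matched a RefSeq window (Smad6, Smad1, Id2, Id3 and Msx2) and of Smad5, which did not pass the test, are printed so that their sequences can be set beside the values below. They are 250 bases before a RefSeq transcript start on GRCm38.p6, written 5′ to 3′ along the gene's strand. For Smad6 the window is chr9:64022060-64022309 on the minus strand, and its last bases reach into the annotated gene, which ends at 64022085, so that its GTCT lies inside the gene. The windows of Smad1 (chr8:79399429-79399678), Id2 (chr12:25096093-25096342), Id3 (chr4:136143572-136143821), Msx2 (chr13:53472781-53473030) and Smad5 (chr13:56702760-56703009) lie on the minus, minus, plus, minus and plus strands. Capitals mark GGCGCC, a GC-rich word bound by Smad1 and Smad5, and GTCT or its complement AGAC, the short word bound by Smad4.
Smad6: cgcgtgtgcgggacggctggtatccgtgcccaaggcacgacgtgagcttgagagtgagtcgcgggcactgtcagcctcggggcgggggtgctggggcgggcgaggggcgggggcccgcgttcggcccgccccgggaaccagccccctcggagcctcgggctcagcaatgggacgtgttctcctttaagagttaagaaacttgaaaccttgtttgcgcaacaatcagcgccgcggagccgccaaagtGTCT
Smad1: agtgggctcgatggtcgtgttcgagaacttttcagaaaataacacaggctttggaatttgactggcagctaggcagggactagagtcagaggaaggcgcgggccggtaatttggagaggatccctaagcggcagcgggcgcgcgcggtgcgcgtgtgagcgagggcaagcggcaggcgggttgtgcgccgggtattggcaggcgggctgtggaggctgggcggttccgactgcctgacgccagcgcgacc
Id2: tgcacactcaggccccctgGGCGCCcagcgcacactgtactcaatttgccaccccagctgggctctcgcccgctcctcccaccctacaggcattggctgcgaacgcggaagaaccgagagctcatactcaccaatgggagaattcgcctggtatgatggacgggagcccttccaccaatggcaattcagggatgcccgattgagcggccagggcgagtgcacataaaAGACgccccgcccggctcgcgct
Id3: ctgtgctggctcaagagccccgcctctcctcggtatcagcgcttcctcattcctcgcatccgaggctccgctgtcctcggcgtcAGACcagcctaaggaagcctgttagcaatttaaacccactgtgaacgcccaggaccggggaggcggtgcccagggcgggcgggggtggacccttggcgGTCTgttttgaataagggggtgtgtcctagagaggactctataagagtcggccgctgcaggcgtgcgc
Msx2: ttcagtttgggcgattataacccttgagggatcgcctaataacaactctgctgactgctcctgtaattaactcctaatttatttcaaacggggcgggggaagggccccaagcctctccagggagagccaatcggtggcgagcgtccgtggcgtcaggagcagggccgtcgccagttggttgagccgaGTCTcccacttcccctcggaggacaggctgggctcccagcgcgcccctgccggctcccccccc
Smad5: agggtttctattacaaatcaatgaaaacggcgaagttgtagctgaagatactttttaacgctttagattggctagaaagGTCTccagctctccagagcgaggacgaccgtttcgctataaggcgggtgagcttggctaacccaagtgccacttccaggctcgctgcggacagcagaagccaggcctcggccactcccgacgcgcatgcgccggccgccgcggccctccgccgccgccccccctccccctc

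The RefSeq windows matched 7 of the 10 genes, in 9 windows. Smad7, Id1 and Bambi had no window, so the counts of words below say nothing about these genes. GGCGCC occurred in 2 of the 9 windows, that of Id2 at position -231 and a further one of Smad5, against 9.59% of all 32851 windows of 27025 genes. GTCT, searched on both strands, occurred in 7 of the 9 windows, 3 of them nearby or overlapping windows of Smad5, against 82.9% of all windows. The palindrome GTCTAGAC, which contains GTCT, was in 0 of the member windows and in 0.167% of all windows. The joined element, GGCGCC followed after 5 bases by GTCT on either strand, contains both shorter words and was in 0 member windows and in 0.07% of all. Among the printed windows, those of Smad6, Id2, Id3, Msx2 and Smad5 hold GTCT or AGAC, and that of Smad1, which fell, holds neither word. These matches describe the letters of the windows only.

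With Ag+, 7 of the 9 measured genes were lower than in the controls, namely Smad6, Smad7, Smad1, Id1, Id2, Id3 and Msx2, with decreases between 1.47-fold for Smad1 and 4.47-fold for Msx2. Among all 25341 named probe sets, 1.47% were lower with Ag+ at the same threshold, an adjusted p under 0.05 in limma's moderated test with the Benjamini-Hochberg adjustment over all of them. With AgNPs, 1 of the 9 genes, Smad6, was lower by 1.73-fold, against 0.0513% of all named probe sets. None of the 9 was higher with either form of silver (0.0355% of named probe sets were with AgNPs and 0.813% with Ag+), at this threshold or at an unadjusted p under 0.05, since all 9 mean differences were below 0 with AgNPs (53.0% of named probe sets were) and with Ag+ (51.1%). Between the exposures, Smad7 and Id1 were higher with AgNPs than with Ag+, by 1.64-fold and 1.57-fold (2 of 9 genes, against 0.363% of named probe sets). The AgNP and Ag+ comparisons share the same 3 control arrays, so their values are set side by side and are not independent of each other.

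**Figure D1:**
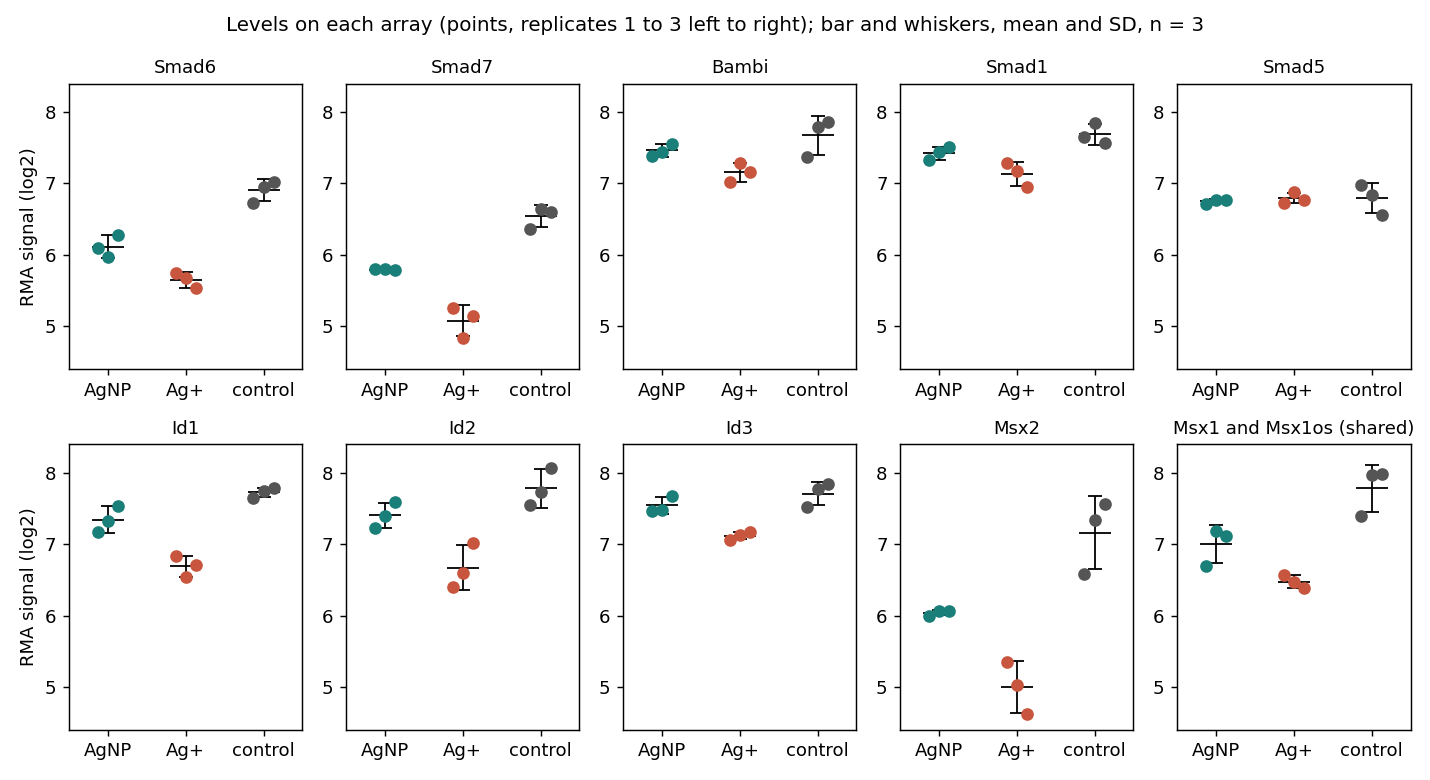
Levels on each array (vertical axis, RMA signal on the log2 scale) of the 9 genes and of the probe set shared by Msx1 and Msx1os, with AgNP, Ag+ and control arrays along the horizontal axis; points are replicates 1 to 3 and the bar with whiskers is the mean with SD (n = 3). The Ag+ arrays lie below every control array in each panel except that of Smad5, where all groups overlap.

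Among the inhibitory Smads, Smad6 (probe set 17528125), whose protein chiefly blocks the BMP branch of Smad signaling, measured 6.09, 5.96 and 6.28 on the AgNP arrays, 5.75, 5.67 and 5.53 on the Ag+ arrays and 6.73, 6.95 and 7.03 on the control arrays (log2 levels, replicates 1 to 3). The 3 groups did not overlap, and AgNP arrays lay between Ag+ and control arrays. The difference from control was -0.79 ± 0.11 with AgNPs (log2 fold change ± SE, limma adjusted p = 0.0399) and -1.25 ± 0.11 with Ag+ (adjusted p = 4.9e-04). The difference between AgNPs and Ag+ was 0.46, with a 95% interval of 0.22 to 0.70, and did not pass (adjusted p = 0.150). The AgNP call for Smad6 stood when control replicate 1 was left out and was lost when any other of the 9 arrays was left out, with adjusted p between 0.0298 and 0.231. It was also lost in a fit of the AgNP and control arrays alone (adjusted p = 0.200).

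Smad7 (probe set 17351862) encodes the inhibitory Smad that acts on both the BMP and the TGF-β/activin branches. Its level was 5.80, 5.80 and 5.79 with AgNPs, 5.25, 4.83 and 5.14 with Ag+ and 6.36, 6.65 and 6.61 in controls. Again the groups were separate and in the same order. AgNP replicates 1 and 2 held an identical value, which makes the spread within that group very small (SD 0.0031, n = 3). Identical values on at least 2 of the 9 arrays occurred for 58.0% of named probe sets and for 3 of the 9 genes (Smad7, Smad5 and Msx2). Smad7 fell with Ag+ with a log2 fold change of -1.46 ± 0.11, the lowest adjusted p of the 9 genes (3.0e-04), while the difference of -0.74 with AgNPs did not pass (adjusted p = 0.0745) and passed only when Ag+ replicate 2 was left out, among omissions of 1 array (adjusted p 0.0442 to 0.295). The level was 0.72 higher with AgNPs than with Ag+ (adjusted p = 0.0363), and this call held without Ag+ replicate 1 or without control replicate 1 and was lost in each other omission of 1 array (adjusted p 0.0346 to 0.132) and in a fit of the AgNP and Ag+ arrays alone (0.0892).

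Bambi, the pseudoreceptor gene, measured 7.39, 7.45 and 7.56 with AgNPs, 7.02, 7.29 and 7.16 with Ag+ and 7.37, 7.80 and 7.87 in controls. All Ag+ arrays were below all control arrays, but the AgNP arrays overlapped the controls, with control replicate 1 below the lowest AgNP array. The difference was -0.52 with Ag+ (interval -0.81 to -0.23, adjusted p = 0.0875) and -0.21 with AgNPs (interval -0.50 to 0.08, adjusted p = 0.673), and neither passed. Bambi passed with Ag+ when control replicate 1 was left out (log2 fold change -0.67, adjusted p = 0.0109).

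Of the receptor-regulated Smads, Smad1 passed with Ag+ and Smad5 did not. Smad1, a direct substrate of BMP type I receptors, had levels of 7.33, 7.44 and 7.51 with AgNPs, 7.29, 7.17 and 6.95 with Ag+ and 7.66, 7.85 and 7.57 in controls. No array of either silver group reached the lowest control. Smad1 had a log2 fold change of -0.27 with AgNPs (adjusted p = 0.534) and fell with Ag+, where it was -0.56 (adjusted p = 0.0269). The Ag+ call was lost in 5 of the 9 omissions of 1 array, namely without AgNP replicate 2, Ag+ replicate 2, Ag+ replicate 3, control replicate 1 and control replicate 2 (adjusted p 0.0298 to 0.101), and in a fit of the Ag+ and control arrays alone (0.0886).

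Smad5, the close paralog with the same place in the pathway, measured 6.72, 6.77 and 6.77 with AgNPs, 6.73, 6.88 and 6.77 with Ag+ and 6.98, 6.84 and 6.56 in controls. The control arrays spanned the whole range of both silver groups. The difference from control was -0.04 with AgNPs (interval -0.26 to 0.18, adjusted p = 0.920) and -0.00054 with Ag+ (interval -0.22 to 0.22, adjusted p = 0.999). A change of Smad5 within these intervals was not detectable with 3 arrays per group, and they do not reach the decrease measured for Smad1 with Ag+. Whether Smad1 and Smad5 differ in response was not tested.

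**Figure D2:**
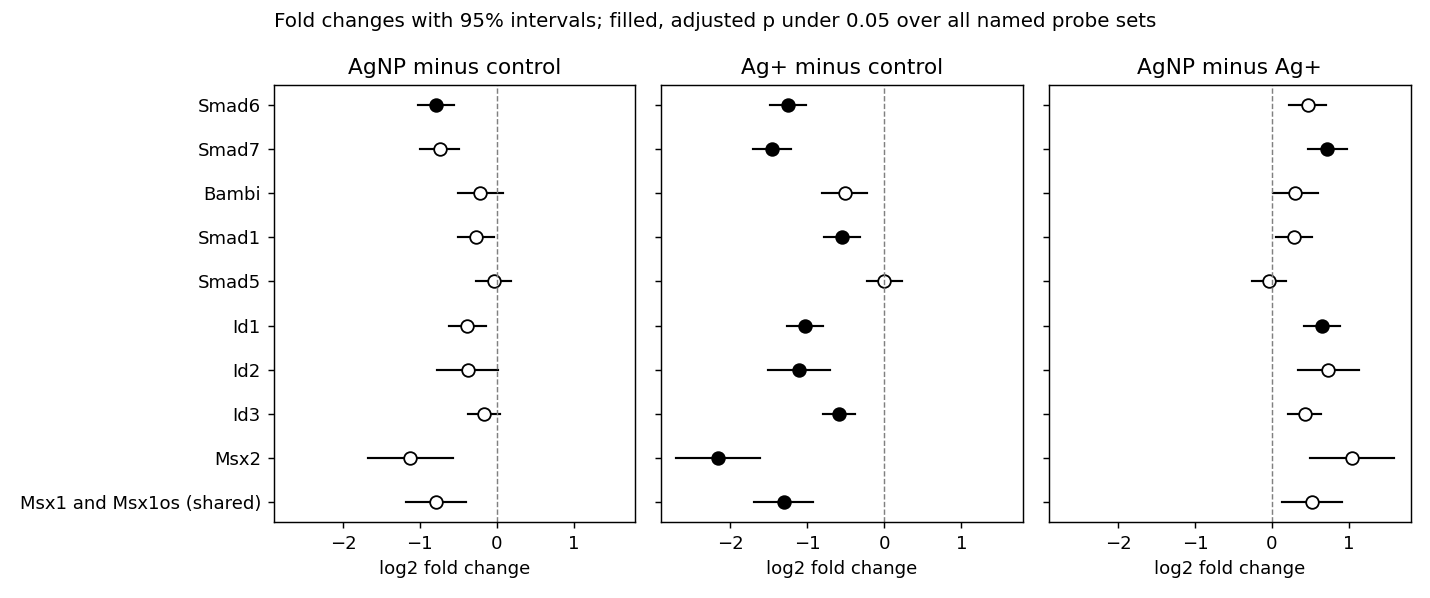
Log2 fold changes with 95% intervals (horizontal axis) of the exposures against the control and of AgNP minus Ag+, 1 row per gene; filled points have an adjusted p under 0.05 over all named probe sets. Filled points number 1, 7 and 2 among the 9 genes, and the shared probe set of Msx1 and Msx1os is filled only for Ag+ minus control.

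All 3 Id genes fell with Ag+ and none passed with AgNPs. Id1, the Id gene long used as a readout of BMP signaling in stem cells, measured 7.17, 7.33 and 7.54 with AgNPs, 6.83, 6.54 and 6.71 with Ag+ and 7.65, 7.74 and 7.79 in controls. Its 3 groups were separate, and the control replicates lay close together (7.73 ± 0.069, SD, n = 3). Its log2 fold change was -0.38 with AgNPs (adjusted p = 0.365) and -1.03 ± 0.11, a 2.05-fold decrease, with Ag+ (adjusted p = 0.0012). It was 0.65 higher with AgNPs than with Ag+ (adjusted p = 0.0389), a call that held without AgNP replicate 1 and was lost in each of the other 8 omissions of 1 array (adjusted p 0.0472 to 0.160) and in a fit of the AgNP and Ag+ arrays alone (0.129).

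Id2, a further inhibitor of basic helix-loop-helix factors, measured 7.23, 7.40 and 7.59 with AgNPs, 6.40, 6.60 and 7.02 with Ag+ and 7.54, 7.73 and 8.07 in controls. The AgNP arrays overlapped the controls and the Ag+ arrays did not, although the spread within every group was wide (SD 0.18, 0.32 and 0.27 for AgNP, Ag+ and control). The decrease with Ag+ was 2.16-fold, -1.11 ± 0.18 on the log2 scale (adjusted p = 0.0125). Without Ag+ replicate 2 or control replicate 2 it no longer passed, with adjusted p up to 0.0643, nor did it in a fit of the Ag+ and control arrays alone (0.0555).

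Id3, which also encodes an inhibitor of basic helix-loop-helix factors, measured 7.47, 7.48 and 7.68 with AgNPs, 7.07, 7.13 and 7.17 with Ag+ and 7.52, 7.77 and 7.84 in controls. Ag+ arrays were below all others, and AgNP replicate 3 lay above control replicate 1. The decrease with Ag+ was 1.51-fold (log2 fold change -0.59 ± 0.09, adjusted p = 0.0117) and was also lost without Ag+ replicate 2 or control replicate 2 (adjusted p up to 0.0627). The difference with AgNPs was -0.17 (adjusted p = 0.655). The remaining Id gene, Id4, named here after its values were seen, averaged 5.65 with AgNPs, 5.98 with Ag+ and 5.80 in controls (log2 levels), and its differences from control of -0.15 with AgNPs and 0.18 with Ag+ did not pass (adjusted p = 0.745 and 0.555).

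Msx2 had the widest differences of the 9 genes. This homeobox gene, expressed in extraembryonic and mesenchymal tissues under BMP signals, measured 6.00, 6.06 and 6.06 with AgNPs, 5.35, 5.03 and 4.62 with Ag+ and 6.58, 7.34 and 7.56 in controls. The groups were separate, but control replicate 1 lay well below the other controls and the Ag+ arrays were spread out. Msx2 fell with Ag+ to 5.00 ± 0.36, against 7.16 ± 0.51 in controls (SD, n = 3 each), a 4.47-fold decrease (adjusted p = 0.0020) with rank 5 from the bottom among all named probe sets. With AgNPs the difference of -1.12, or 2.18-fold, had rank 4 from the bottom and yet did not pass (adjusted p = 0.226, standard error 0.24). It passed when control replicate 1 was left out (log2 fold change -1.41, adjusted p = 0.0396). Between AgNPs and Ag+ the difference was 1.04 with an interval of 0.49 to 1.58 (adjusted p = 0.163).

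Both shared probe sets of Msx1 and its opposite-strand transcript Msx1os had lower means with Ag+. The brighter of them (17447610) measured 6.69, 7.19 and 7.11 with AgNPs, 6.57, 6.47 and 6.38 with Ag+ and 7.40, 7.97 and 7.98 in controls, with no overlap between silver and control arrays. Its log2 fold change was -0.79 with AgNPs (adjusted p = 0.239), and it fell with Ag+, where this value was -1.31 (adjusted p = 0.0046). The dimmer one (17437049) averaged 4.37 with AgNPs, 4.38 with Ag+ and 4.74 in controls and did not pass in either comparison (adjusted p = 0.470 and 0.245). From these probe sets, Msx1 and Msx1os cannot be told apart.

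By the thresholds of the study's methods, a fold change of at least 1.5 with an unadjusted p under 0.05, applied to limma's p, 3 genes were lower with AgNPs (Smad6, Smad7 and Msx2, against 0.276% of named probe sets, where the methods' t-test gave 2, without Msx2) and 6 with Ag+ (the 7 above without Smad1, against 1.10%). Bambi, lower with Ag+ by 1.43-fold, missed this fold change here. The paper's pathway list for Ag+, drawn from genes past its thresholds, nevertheless includes Bambi, and the cause of this difference was not tested. At the same thresholds 4 were higher with AgNPs than with Ag+ (Smad7, Id1, Id2 and Msx2, against 0.513%). Counting arrays alone, 5 of the 9 genes had all AgNP arrays below all control arrays (6.09% of named probe sets did) and 8 had all Ag+ arrays below all control arrays (9.51%). For 8 of the 9, all AgNP arrays also lay above all Ag+ arrays (6.72%), Smad5 being the exception. The median log2 fold change of the 9 genes was -0.38 with AgNPs and -1.03 with Ag+, beside medians of -0.0082 and -0.0036 over all named probe sets. In 8 of the 9 genes the group means were ordered Ag+, AgNP and control from low to high, an order that 22.2% of named probe sets had.

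**Figure D3:**
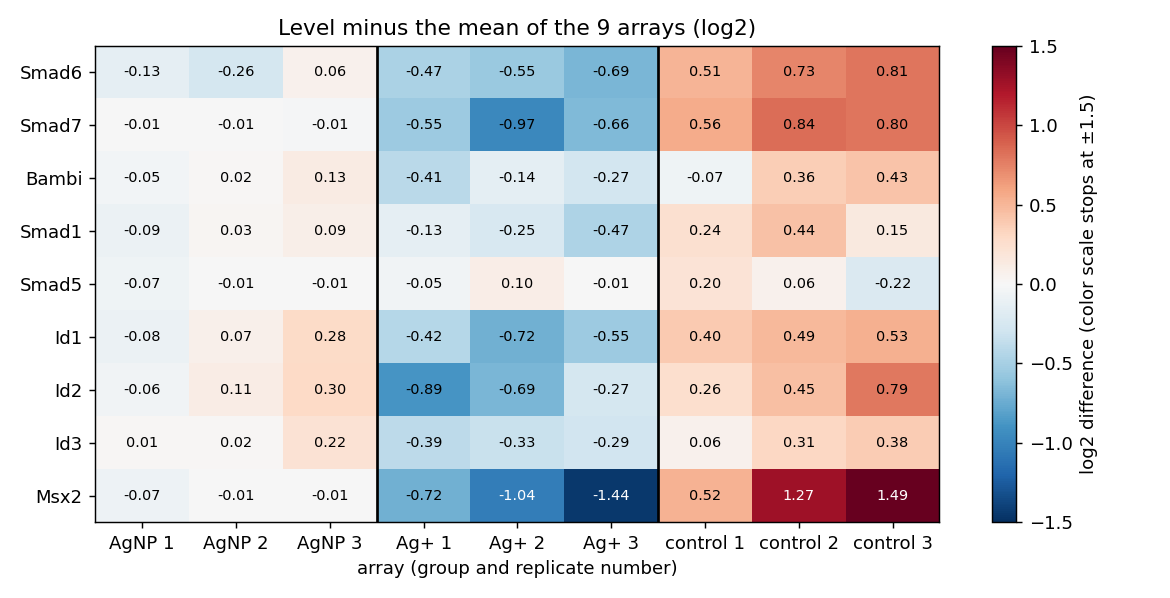
Level of each gene on each array minus that gene's mean over the 9 arrays (log2 difference, color scale ending at ±1.5), with AgNP, Ag+ and control arrays from left to right and genes as rows. The Ag+ arrays hold the lowest values for 8 genes, and control replicate 1 is the lowest control for 7.

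Within groups, some arrays were low or high for most of the genes. Control replicate 1 was the lowest control for 7 of the 9 genes and AgNP replicate 1 the lowest AgNP array for 7, while AgNP replicate 3 was alone the highest AgNP array for 6 and tied for it for 2. No such array stood out in the Ag+ group, where replicates 1, 2 and 3 were lowest for 4, 2 and 3 genes. Averaged over the 9 genes after centering each gene, the arrays measured -0.06, -0.0041 and 0.12 for AgNP, -0.45, -0.51 and -0.52 for Ag+ and 0.30, 0.55 and 0.57 for control. The 3 groups did not overlap on this average, and control replicate 1 was the control nearest to the AgNP arrays. Among pairs of the 9 genes, the centered levels of Bambi and Id3 were nearest to each other, with a root mean square difference of 0.09 on the log2 scale, followed by Id3 and Smad1 (0.16) and the inhibitory pair Smad6 and Smad7 (0.18). Msx2 and Smad5 were farthest apart (0.96).

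Over the 9 arrays, the other genes with a pattern nearest to the average of the 9 genes, among 22171 compared by the same root mean square difference, were Ppic, which encodes a cyclophilin, the netrin receptor gene Unc5b, Prkaa2, which encodes a catalytic subunit of AMP-activated kinase, Man1c1, an alpha-mannosidase gene, and B4galt6, which encodes a galactosyltransferase of glycolipid synthesis (0.07 to 0.10). Ppic, the nearest, averaged 8.07 with AgNPs, 7.55 with Ag+ and 8.64 in controls. This ranking describes likeness over 9 arrays in 3 groups and carries no test.

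Upstream of these genes, 4 of 12 measured BMP ligand genes fell with Ag+ and none rose at the adjusted threshold. Bmp7 lay the other way, with a log2 fold change of 0.43 and all Ag+ arrays above all controls (adjusted p = 0.0536, named after its values were seen). Bmp4, the ligand of the extraembryonic ectoderm and early mesoderm, averaged 7.94 with AgNPs, 7.12 with Ag+ and 8.91 in controls, a log2 fold change of -1.79 with Ag+ (adjusted p = 0.0059) and of -0.98 with AgNPs (adjusted p = 0.322). Bmp2 (-0.76, adjusted p = 8.8e-04), Bmp5 (-0.98, adjusted p = 0.0070) and Bmp6 (-0.38, adjusted p = 0.0361) were the others, all ligands of the same family. The median of the 12 ligands was -0.01 with Ag+, with 8 of the 12 not past the threshold. Bmp6 was also higher with AgNPs than with Ag+ by 0.47 (adjusted p = 0.0389).

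Of 9 receptor genes 1 fell with Ag+, the type II receptor gene Bmpr2 (log2 fold change -0.29, adjusted p = 0.0434), and of 12 genes of extracellular antagonists and modulators 1 rose and 1 fell. Chrd encodes chordin, a secreted protein that binds BMPs and keeps them from their receptors, and it averaged 6.26 with AgNPs, 6.84 with Ag+ and 5.82 in controls (Ag+ log2 fold change 1.02, adjusted p = 2.1e-04). Bmper, which encodes a secreted BMP-binding modulator, averaged 6.59 with AgNPs, 5.74 with Ag+ and 7.10 in controls (Ag+ log2 fold change -1.35, adjusted p = 2.9e-04). Both also differed between the exposures, with AgNP minus Ag+ differences of -0.58 for Chrd (adjusted p = 0.0079) and 0.85 for Bmper (adjusted p = 0.0101).

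Inside the cell, none of the 4 other Smad genes passed with Ag+, including Smad9, the third BMP-activated Smad (Ag+ log2 fold change -0.48, adjusted p = 0.0703), and Smad3, of the TGF-β branch (0.30, adjusted p = 0.214). Among 14 intracellular regulators none passed with Ag+ either, the nearest being Skil, a corepressor of Smads (-0.81, adjusted p = 0.0681), and Smurf1, a ubiquitin ligase that targets Smad1 and Smad5 (-0.22, adjusted p = 0.0742). The 3 E protein genes, partners that Id proteins sequester, did not pass in any comparison. Of these 21 genes together, 0 passed limma's adjusted threshold with Ag+, 4 had an unadjusted p under 0.05 in limma and 6 in the methods' t-test.

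Among 21 measured genes reported as BMP targets in other settings, 5 fell with Ag+ and none rose. They were the transcription factor genes Tbx3 (log2 fold change -2.34, adjusted p = 3.0e-04), Hand2 (-2.02, adjusted p = 4.5e-04), Gata4 (-1.03, adjusted p = 5.1e-04) and Hand1 (-2.23, adjusted p = 0.0016), together with Gata6 (-0.59, adjusted p = 0.0184), which was named after its values were seen to complete the count. Tbx3 and Gata4 were also higher with AgNPs than with Ag+ (1.33, adjusted p = 0.0195, and 0.62, adjusted p = 0.0219). The median of the 21 was -0.18 with AgNPs and -0.23 with Ag+. Of the 75 measured genes of all these pathway lists, 0 passed the adjusted threshold with AgNPs, and 16 had an unadjusted p under 0.05 in limma (12 lower and 4 higher) and 11 in the methods' t-test.

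**Figure D4:**
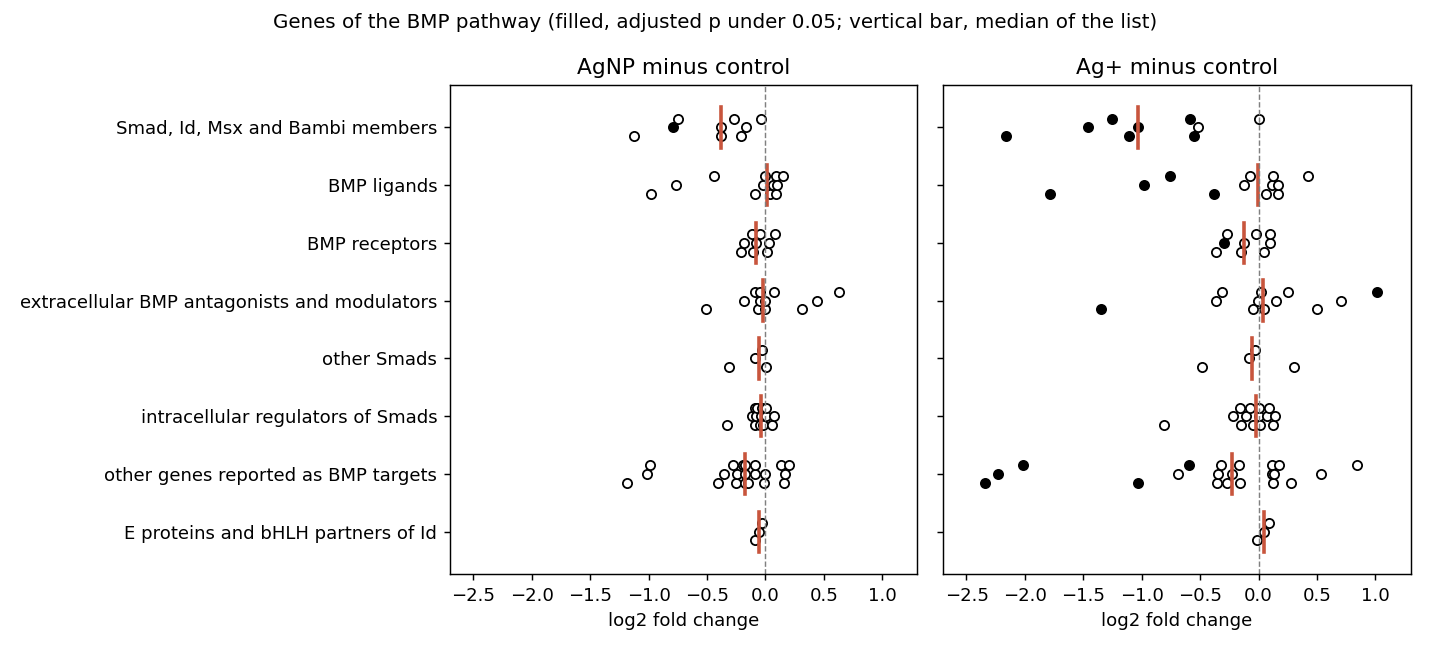
Log2 fold changes (horizontal axis) for AgNP minus control and Ag+ minus control, 1 point per gene and 1 row per list, with a vertical bar at the median of each list; filled points have an adjusted p under 0.05. The Smad, Id, Msx and Bambi genes have a median of -1.03 with Ag+, and the 7 lists of other pathway genes have medians between -0.23 and 0.04.

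Markers of cell types that EBs can hold moved with the same comparison, and their part in the values above was not tested. At these doses the paper reports a larger loss of viability in EBs with Ag+ than with AgNPs. It also describes cells falling off the outer shell of EBs at this dose of Ag+, and with AgNPs only above it. Annexin V binding, its measure of apoptosis, rose with AgNPs and not significantly with Ag+. The part of such cell loss in the values here was not tested. Of 12 markers of lateral, cardiac and extraembryonic mesoderm, 8 fell with Ag+ and 1, Tbx20, with AgNPs (log2 fold changes -2.59 and -1.26, adjusted p = 2.1e-04 and 0.0399). At an unadjusted p under 0.05, 9 of the 12 were lower with AgNPs in limma and 5 in the methods' t-test. The list shares Hand1, Hand2, Gata4, Gata6 and Bmp4 with the lists above. The mean level of the 12 ranged over 6.85 to 7.25 on AgNP arrays, 6.42 to 6.48 on Ag+ arrays and 7.48 to 7.75 on control arrays. All 10 paraxial mesoderm markers rose with Ag+ and 1, the Notch ligand gene Dll1, with AgNPs (1.51 and 0.82, adjusted p = 2.8e-04 and 0.0399), with array means of 6.51 to 6.95 on AgNP, 7.32 to 7.63 on Ag+ and 6.03 to 6.14 on control arrays. At an unadjusted p under 0.05, 8 of the 10 were higher with AgNPs in limma and 7 in the methods' t-test. Of 12 visceral endoderm markers, 7 fell with Ag+, led by Dab2 and Cubn (-1.76 and -3.35, adjusted p = 1.3e-04 and 2.1e-04), and 0 with AgNPs (2 at an unadjusted p under 0.05 in limma and 1 in the methods' t-test). The list was not uniform: Sox17 and Foxa2, both named after their values were seen, had log2 fold changes of 0.30 and 0.38 with Ag+ (adjusted p = 0.0722 and 0.185). The array means of the 12 ranged over 6.74 to 6.92 on AgNP, 5.86 to 6.01 on Ag+ and 6.81 to 6.96 on control arrays. Of 8 pluripotency markers 1 (Klf4), of 6 primitive streak markers 2 (Eomes and Wnt3), of 9 blood and endothelium markers 1 (Runx1) and of 8 neural ectoderm markers 0 fell with Ag+ and none of these rose at the adjusted threshold. The blood and endothelium list had a median log2 fold change of 0.18 with Ag+, above 0 despite the fall of Runx1, with 1 gene lower and 1 higher at an unadjusted p under 0.05 in limma. With AgNPs 0 of these 31 genes passed, with 4 at an unadjusted p under 0.05 in limma, all lower, and 3 in the methods' t-test. Over all 25341 named probe sets, the methods' t-test gave 950 with AgNPs and 1788 with Ag+ at an unadjusted p under 0.05. The matching totals for limma are not given here, so its unadjusted counts have no background beside them.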

How the data were processed

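RNA of whole EBs was hybridised to Affymetrix Mouse Gene 2.0 ST arrays, 1 per biological replicate. In Expression Console 1.3 the authors applied RMA, which corrects background, equalises the arrays by quantiles and summarises each probe set by median polish. The log2 values deposited for 41345 probe sets were analysed without further normalization. Array medians lay between 5.03 and 5.08 over the named probe sets, no pair of arrays was identical, and the number of arrays limits the precision. By the platform annotation, 23521 probe sets name 1 gene, 1820 several and 16004 none.

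In R 4.3.3 with limma 3.58.1 (lmFit and eBayes) and version 1.17.8 of data.table, all 9 arrays entered a single linear model with a mean per group, from which the 3 contrasts were tested two-sided with Benjamini-Hochberg adjustment over the 25341 named probe sets. The procedure was tested on simulated data with independent normal noise and with changes put into the Ag+ group alone. That simulation held no tied values and did not examine the contrasts of AgNPs. The methods' t-test was Welch's test on the same values. The paper's filter for unexpressed probe sets is not described in detail and was not applied, and EBs kept at a lower dose of Ag+ were not analysed here. The genes, the lists and the tests were chosen with earlier results of these data known. Genes named outside the 10 are up to 4 per list with the smallest p for Ag+ minus control, any that passed with AgNPs, and the 5 nearest patterns; Id4, Gata6, Bmp7, Sox17 and Foxa2 were named outside this rule after their values were seen. Alternatives were a fit of only the compared groups, a block for the replicate number, array weights, trend and robust options, and all probe sets. Others were a minimum mean signal of 5, centering of arrays, averaging of a gene's probe sets, the methods' thresholds and t-test, and leaving out each array. Centering shifted each array to equalise the array medians over named probe sets with a mean signal of at least 5. Promoter windows are RefSeq's, on GRCm38.p6.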

Additional observations from a re-analysis of the deposited data

How the results depend on the processing

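No fold change of a gene that passed changed direction under any alternative. With AgNPs, the count of genes that passed (1, Smad6) was 0 in a fit of the compared groups alone, with the replicate number as a block, over all probe sets, with arrays centered on their median and by the methods' t-test with Benjamini-Hochberg adjustment. It was 2 with trend and robust options, with array weights and with a minimum mean signal of 5, where Smad7 joined Smad6. By the methods' thresholds it was 2 with their t-test and 3 with limma. With Ag+, the count of 7 lay between 5 and 8 under the other settings apart from leaving out arrays, except for 0 by the methods' t-test after Benjamini-Hochberg adjustment, where 7 had an unadjusted p under 0.05. Between AgNPs and Ag+, the count of 2 was 0 in the fit of the compared groups alone, over all probe sets and by the adjusted methods' t-test, 1 with centering, and 4 by the methods' thresholds with either test. The fit of the compared groups alone uses fewer arrays, and testing all probe sets adjusts over more of them. Why the counts changed was not tested for these or any other alternative. Leaving out 1 array gave 0 to 2 genes with AgNPs, 4 to 7 with Ag+ (4 without Ag+ replicate 2 or without control replicate 2) and 0 to 1 between the exposures.

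Over all named probe sets, the count with AgNPs (22) was 0 in the fit of the compared groups alone, where 1833 probe sets and 6 of the 9 genes had an unadjusted p under 0.05, 4 over all probe sets, 42 with a minimum mean signal of 5, and 3 to 36 without 1 array. The count with Ag+ (579) was 282 to 837 under the limma alternatives at the adjusted threshold, and that between AgNPs and Ag+ (129) was 37 to 204. Centering the arrays changed the split of calls from 9 higher and 13 lower to 8 and 4 with AgNPs. With Ag+ the split changed from 206 higher and 373 lower to 269 and 292. Centering also moved the median log2 fold change of all named probe sets to 0.023 with AgNPs and 0.045 with Ag+. Before it, these medians were -0.0082 and -0.0036. By the adjusted methods' t-test all these counts of calls were 0, against 950, 1788 and 1236 at an unadjusted p under 0.05.

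Correlations of same-numbered deviations lay between -0.06 and 0.23 over the 3 comparisons, and between 0.07 and 0.13 for AgNP with Ag+. The arrays closest to their own number were 3 of 6 for AgNP with control and 3 of 6 for Ag+ with control. For AgNP with Ag+ they were 6 of 6. Whether the replicate numbers pair the arrays was not tested. The block gave 0, 8 and 2 genes in the 3 comparisons, with Bambi added for Ag+ and Id2 in place of Smad7 between AgNPs and Ag+. For Id2 between AgNPs and Ag+, limma's adjusted p was 0.0065 with the block and 0.177 in the main fit. For Id2 with Ag+ against the control, it was 5.8e-04 with the block and 0.0125 in the main fit. Probe sets of low signal and the 3 arrays per group limit these tests.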
